A study of Gallus gallus with 6 samples.

Results

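The genes described here encode the machinery by which a chicken cell detects double-stranded RNA, together with IFNKL1, a type I interferon gene annotated as interferon kappa-like. They are 7 genes of the 24433 in the deposited table, found by symbol: the sensors IFIH1, DHX58, TLR3 and EIF2AK2, the adaptor MAVS, the kinase TBK1 and IFNKL1. All 7 had a mean of at least 1 FPKM (fragments per kilobase of gene, scaled to the sequencing depth) over the libraries. The 7 were chosen by name with the differences between the groups already known, so these differences are given as a description, without a test.

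RNA sequencing was done on polyadenylated RNA of chicken primary myoblasts, muscle precursor cells from leg muscle. In 3 libraries the cells overexpressed ANKRD9, whose product carries ankyrin repeats and serves ubiquitin ligases of the cullin type, and in 3 control libraries they carried pcDNA3.1, a plasmid expression vector. No age, strain or sex of the birds, culture time, delivery method or plasmid dose is given in the labels, and whether the repeats are separate cultures is not stated. The p-values therefore reflect the spread among these 6 libraries alone, which may be technical. The study concerned the metabolism of inosine monophosphate.

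Double-stranded RNA is a by-product of viral replication and can also come from the cell's own transcripts. IFIH1 (MDA5) and DHX58 (LGP2) bind it in the cytosol, TLR3 in endosomes. IFIH1 passes the signal to MAVS on the mitochondrial membrane, and TLR3 to the adaptor TICAM1. Both routes meet at the kinases TBK1 and IKBKE, which activate interferon regulatory factors and so the interferon genes. EIF2AK2 (PKR) is a kinase that on binding the RNA phosphorylates eIF2 and holds back translation. Chickens lack RIG-I, the third receptor of the IFIH1 family, and IRF3, whose place is taken by IRF7. In vertebrates IFIH1, DHX58 and EIF2AK2 are themselves induced by interferon.

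The libraries held between 16158627 and 26310089 reads, as recovered from the FPKM values. ANKRD9 stood at 90.5, 104 and 101 FPKM with its construct against 9.46, 8.16 and 10.1 FPKM in the controls, 10.7-fold higher, as labelled. The myoblast markers MYF5, MYOD1, DES, MYOG, CDH15, MYF6 and PAX7 were all present, at control means from 27.1 FPKM for MYF6 to 296 FPKM for MYF5. Across the transcriptome 1900 of 11685 tested genes were higher and 2310 lower with ANKRD9 (limma, adjusted p under 0.05), and 1255 were higher when ANKRD9 replicate 2 was left out.

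IFIH1 and IFNKL1 were the members that differed most between the groups. IFIH1 was 1.91-fold higher with ANKRD9 and IFNKL1 4.41-fold, while DHX58 was 1.25-fold and EIF2AK2 1.17-fold higher. TLR3, MAVS and TBK1 stood within 1.10-fold of their control means. In the fit across all genes 4 of the 7 members passed in the upward direction, IFIH1, DHX58, IFNKL1 and EIF2AK2, and none in the other, where 16.3% of all tested genes passed upward and 19.8% downward (36.0% in either direction). For 5 of the 7, those 4 and TBK1, the values of the groups did not overlap, with ANKRD9 the higher. Such upward separation held for 23.7% of all tested genes and separation in either direction for 50.6%. Since the choice of members used this contrast, these calls are not a test of the members. Nothing is read from the calls or the counts.

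**Figure D1:**
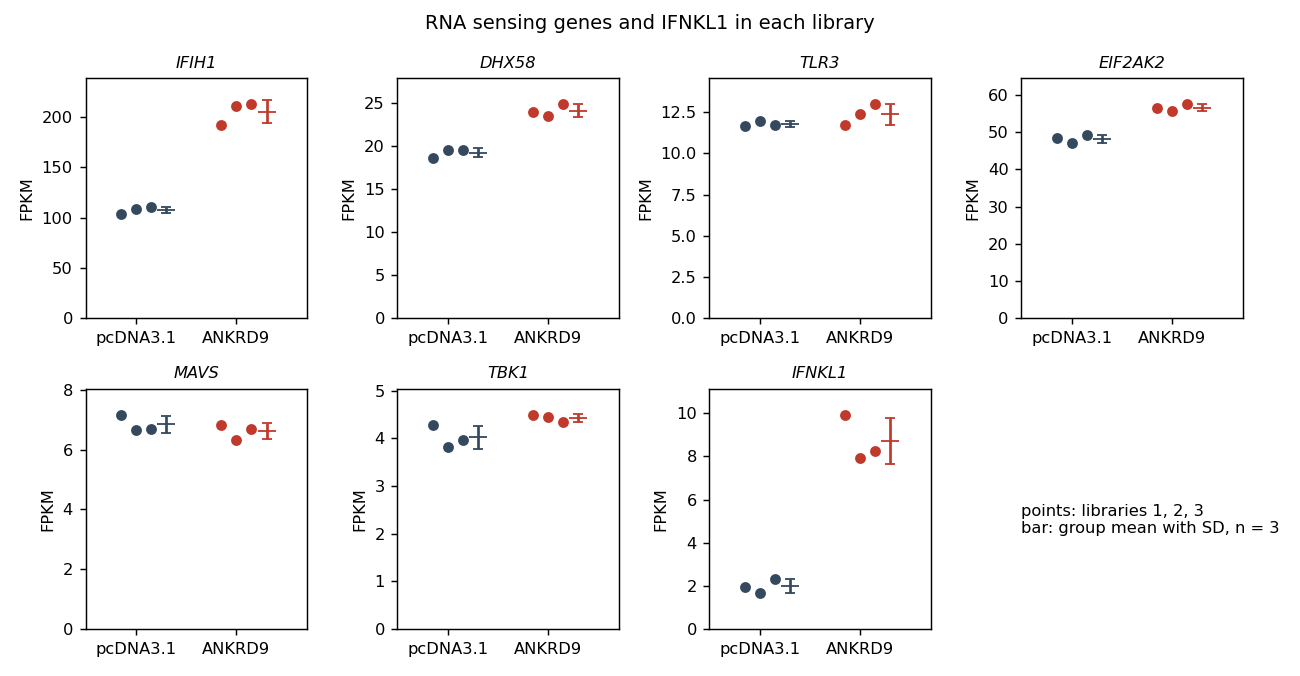
FPKM (y axis, from 0) of the 7 genes in each library, control libraries on the left and ANKRD9 libraries on the right of each panel. Points are libraries 1, 2 and 3, and the bars are the mean with SD (n = 3). The groups are apart for IFIH1, DHX58, EIF2AK2, TBK1 and IFNKL1 and overlap for TLR3 and MAVS.

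Among the sensors, IFIH1 (gene 424185, chromosome 7: 21044348-21071090, plus strand, GRCg6a) had the highest level. It stood at 192, 211 and 213 FPKM in ANKRD9 libraries 1, 2 and 3 and at 104, 109 and 110.3 FPKM in the control libraries, on 8056 to 19933 reads per library. Every ANKRD9 library was far above every control library. The means were 205 ± 11.4 FPKM and 108 ± 3.37 FPKM (SD, n = 3 each), and the log2 difference was 0.92 ± 0.05 (SE, on log2(FPKM + 1) as throughout). In control cells 93.8% of tested genes had a lower mean than IFIH1, so the sensor was among the abundant transcripts there too. The series holds no untreated cells, so the level of IFIH1 without the vector is not known. Of the 11685 tested genes, 128 had a larger ratio of ANKRD9 to control.

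DHX58 (gene 100858653, chromosome 27: 7639364-7646306, minus strand) encodes the relative of IFIH1 that lacks signalling domains of its own and tunes the response. It stood at 24.0, 23.5 and 24.9 FPKM with ANKRD9 and at 18.6, 19.6 and 19.5 FPKM in the controls. These groups did not overlap either, though the step between them was smaller than that of IFIH1. The means were 24.1 ± 0.722 and 19.2 ± 0.526 FPKM (SD, n = 3 each), a log2 difference of 0.31 ± 0.04 (SE).

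TLR3 (gene 422720, chromosome 4: 61315978-61324350, plus strand), the endosomal receptor, stood at 11.7, 12.4 and 13.0 FPKM with ANKRD9 and at 11.7, 12.0 and 11.7 FPKM in the controls. ANKRD9 library 1 lay within the control range, so the groups overlapped. The log2 difference was 0.06 ± 0.05 (SE), which does not show that the levels were equal. TLR3 overlaps FAM149A on the same strand over 1034 bases, and FAM149A stood at 0.817 ± 0.209 and 0.920 ± 0.0632 FPKM (SD, n = 3 each).

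EIF2AK2 (gene 395147, chromosome 3: 32108928-32127405, plus strand) stood at 56.5, 55.7 and 57.6 FPKM with ANKRD9 and at 48.5, 47.1 and 49.2 FPKM in the controls. The separation was complete and the spread within each group small, with a coefficient of variation of 1.61% and 2.18%. The means of 56.6 ± 0.914 and 48.3 ± 1.05 FPKM gave a log2 difference of 0.23 ± 0.04 (SE). GPATCH11 lies on the opposite strand over 7395 bases of this gene. Without a stated strand setting, reads of EIF2AK2 and GPATCH11 in the shared stretch cannot be assigned with certainty. GPATCH11 stood at 8.01 ± 0.287 and 7.93 ± 0.361 FPKM.

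Downstream of the sensors, MAVS and TBK1 were present at lower levels. MAVS (gene 422936, chromosome 4: 88534785-88542860, minus strand), through which IFIH1 signals, stood at 6.83, 6.33 and 6.70 FPKM with ANKRD9 and at 7.16, 6.66 and 6.70 FPKM in the controls. The groups overlapped, and the log2 difference was -0.04 ± 0.05 (SE). TBK1 (gene 417825, chromosome 1: 33752711-33785156, plus strand) stood at 4.49, 4.45 and 4.34 FPKM with ANKRD9 and at 4.29, 3.82 and 3.95 FPKM in the controls. The lowest ANKRD9 library was just above the highest control library, with a log2 difference of 0.11 ± 0.06 (SE). TBK1 overlaps RASSF3 on the same strand over 1033 bases, and RASSF3, at 15.8 ± 0.648 against 17.5 ± 0.0816 FPKM, was lower (limma, log2 difference -0.14 ± 0.04, adjusted p = 0.0383).

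IFNKL1 (gene 101750245, chromosome Z: 34282721-34285249, minus strand) was the lowest of the 7 in control cells and the one with the largest ratio. Its level was 9.93, 7.95 and 8.24 FPKM with ANKRD9 and 1.96, 1.66 and 2.31 FPKM in the controls. The reads behind these values were 447, 219 and 270 in the first group and 66, 64 and 82 in the other. No ANKRD9 library came near the control range. The means were 8.71 ± 1.07 and 1.98 ± 0.323 FPKM (SD, n = 3 each) and the log2 difference 1.71 ± 0.11 (SE), which the pseudocount of 1 lowers for so low a gene. With a pseudocount of 0.1 the log2 difference was 2.09. Only 14 tested genes had a larger ratio. The coefficient of variation was 12.3% with ANKRD9 and 16.3% in the controls, where counting alone gives 5.92% and 12.0%.

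In order of level per gene length, control cells had IFIH1 first, then EIF2AK2, DHX58, TLR3, MAVS, TBK1 and IFNKL1. With ANKRD9 the order was the same except that IFNKL1 came above MAVS and TBK1. In neither group did neighbours in the order overlap over the 3 libraries. The closest neighbours were IFNKL1 and MAVS in the ANKRD9 cells, at 1.32-fold, and DHX58 and TLR3 in the control cells, at 1.63-fold.

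Ratios of FPKM within a library do not depend on how libraries were scaled. IFIH1 to DHX58, the cytosolic pair, was 7.99, 8.98 and 8.54 with ANKRD9 and 5.57, 5.54 and 5.65 without. The balance of the pair lay toward IFIH1 in every library and further so with ANKRD9. This ratio and those below follow from the values of the single genes, with members chosen on this contrast. They describe the same differences again and add no further support. IFIH1 to its adaptor MAVS was 28.1 to 33.3 with ANKRD9 and 14.5 to 16.5 in the controls, again without overlap. TBK1 to IKBKE, the related kinases of the pathway, averaged 0.202 ± 0.00932 with ANKRD9 and 0.298 ± 0.0195 without (SD, n = 3 each; no test), also without overlap. By contrast, EIF2AK2 to ADAR, a pair of interferon-inducible genes for proteins that bind double-stranded RNA, ranged from 0.840 to 0.880 with ANKRD9 and from 0.830 to 0.908 in the controls, and overlapped.

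**Figure D2:**
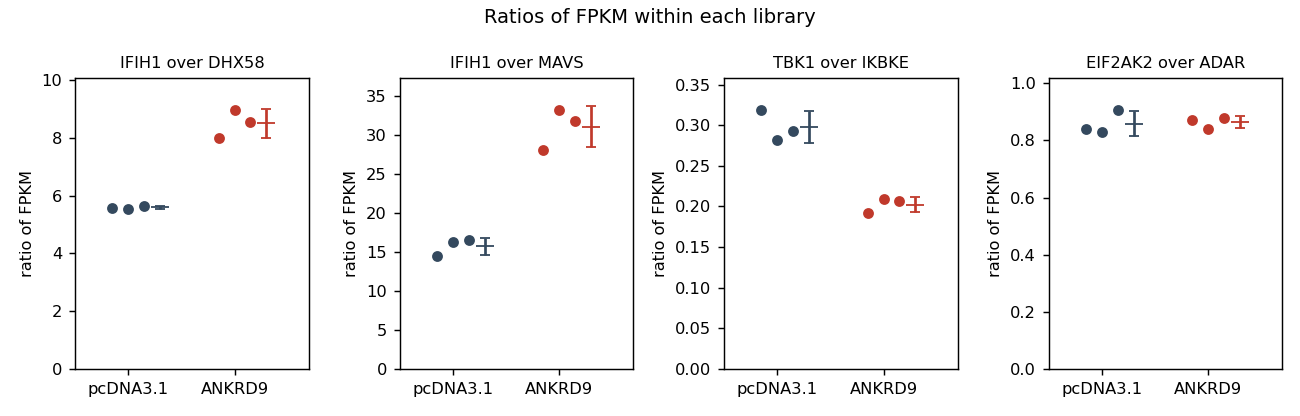
Ratios of FPKM within each library (y axis, from 0) for 4 pairs of genes, control libraries on the left and ANKRD9 libraries on the right. Points are libraries and bars the mean with SD (n = 3). IFIH1 over DHX58 and over MAVS is higher and TBK1 over IKBKE lower with ANKRD9, while EIF2AK2 over ADAR overlaps.

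The other genes of the pathway were taken from lists, the 7 members being left out, and tested in the fit across all genes. These lists, here and below, were chosen with earlier results of these data known. Their shares are therefore a description and not independent support. Of 45 symbols of RIG-I-like and TLR3 signalling, 38 were tested, of which 16 rose, 7 fell and 15 did not pass. That is 42.1% higher and 18.4% lower, beside the 16.3% and 19.8% of all tested genes. The list's median log2 difference was 0.11 and that of all tested genes -0.01. Leaving out any 1 library brought the number lower to between 3 and 5. It was 3 without ANKRD9 replicate 1 and 4 without ANKRD9 replicate 2.

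IKBKE, the kinase related to TBK1, stood at 21.9 ± 1.32 FPKM against 13.5 ± 0.0768 FPKM and so rose 1.62-fold (SD, n = 3 each; limma, log2 difference 0.66 ± 0.05, adjusted p = 1.92e-04). The NF-kB subunit genes REL and NFKB2 also rose, REL 1.52-fold to 54.7 ± 1.84 FPKM (adjusted p = 1.92e-04, limma) and NFKB2 1.36-fold to 107 ± 2.78 FPKM (adjusted p = 2.82e-04, limma). Of the other NF-kB subunit genes listed, NFKB1 rose 1.25-fold to 50.5 ± 2.20 FPKM (adjusted p = 0.00287, limma). RELA did not pass, at 25.2 ± 1.55 against 24.0 ± 1.10 FPKM (adjusted p = 0.402, limma). NFKB1 and RELA were picked after their values were seen, and each overlaps another gene on the opposite strand. Fallers included FADD, a death-domain adaptor, 1.28-fold to 24.0 ± 1.03 FPKM, the mitochondrial fusion gene MFN2, 1.21-fold to 18.7 ± 0.463 FPKM, and the kinase gene MAP3K7, 1.20-fold to 17.1 ± 0.633 FPKM (limma, adjusted p = 0.00206, 0.00431 and 0.00776). IKBKE overlaps SRGAP2 and MFN2 overlaps PLOD1 on the same strand, and REL overlaps PUS10 and MAP3K7 overlaps LOC107053107 on the opposite strand.

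A few further genes of the route were picked after their values were seen. The TLR3 adaptor TICAM1 stood at 7.95 ± 0.0910 against 7.05 ± 0.344 FPKM and TRAF3, a ubiquitin ligase that acts after MAVS, at 18.0 ± 0.523 against 15.9 ± 1.11 FPKM (SD, n = 3 each). Both passed narrowly (limma, adjusted p = 0.0479 and 0.0440), and each lost its call when any of 5 of the 6 libraries was left out, with adjusted p up to 0.138 and 0.118. The exception was pcDNA3.1 replicate 1 for both. TICAM1 overlaps FEM1A and PLIN3. TMEM173, which encodes STING of the cytosolic DNA pathway, rose 1.44-fold to 17.7 ± 0.932 FPKM (adjusted p = 7.06e-04, limma). MB21D1, the gene of the DNA sensor cGAS that feeds it, did not pass, at 5.75 ± 0.430 against 5.95 ± 0.316 FPKM (adjusted p = 0.640, limma).

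Interferon regulatory factors carry the signal to the interferon promoters. IRF7 stood at 99.9, 103 and 101 FPKM with ANKRD9 and at 79.2, 78.6 and 80.4 FPKM in the controls, and IRF1 at 97.2, 90.7 and 87.8 against 71.1, 71.4 and 71.6 FPKM. Neither gene's groups overlapped, and both rose, IRF7 1.28-fold and IRF1 1.29-fold (limma, adjusted p = 4.76e-04 and 0.00118). IRF2, which competes with IRF1, rose 1.18-fold to 22.2 ± 0.173 FPKM and IRF9, the DNA-binding partner of STAT2, 1.65-fold to 57.0 ± 2.89 FPKM (limma, adjusted p = 0.00665 and 0.00186). IRF8, at 62.1 ± 3.30 against 57.0 ± 1.51 FPKM, did not pass (limma, adjusted p = 0.0901) except under quantile normalization (limma, adjusted p = 0.0412). IRF5 and IRF4 were below the filter, with means of at most 0.655 and 0.130 FPKM. IRF7 overlaps LOC112532583 on the opposite strand.

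**Figure D3:**
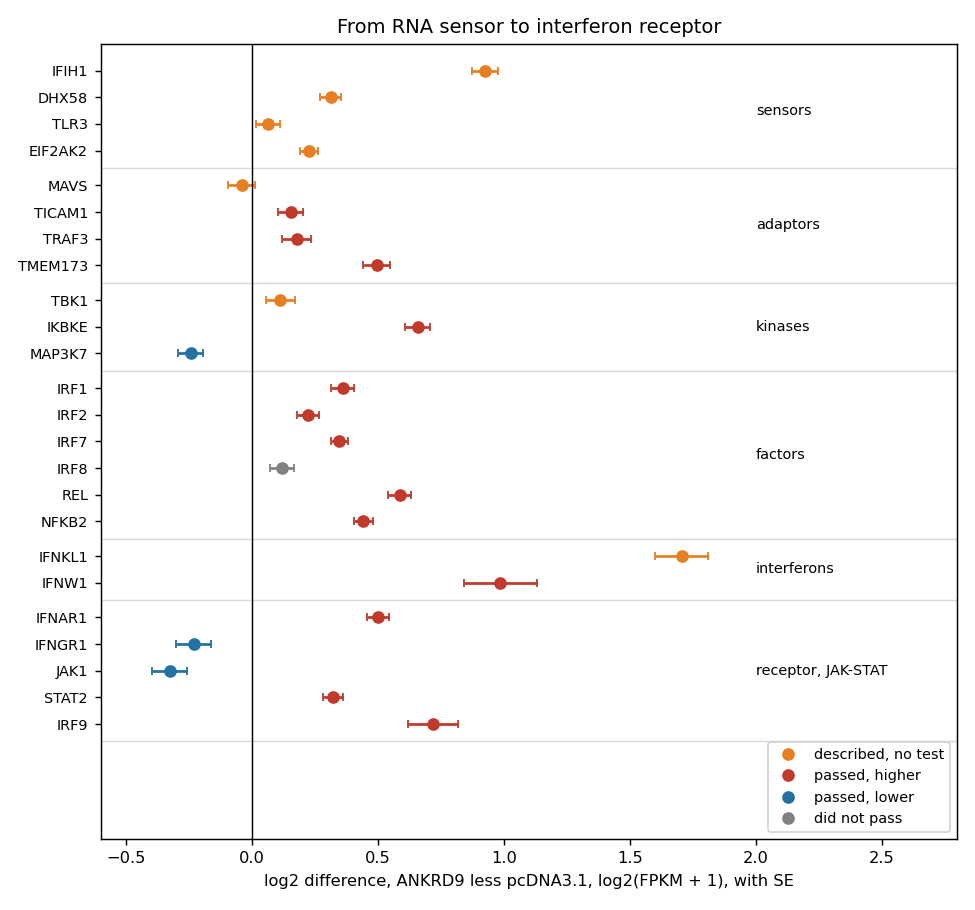
Log2 differences (x axis, ANKRD9 less control, on log2(FPKM + 1)) with SE for genes from sensor to interferon receptor, 3 libraries a group. Orange marks the 7 members, described without a test, red and blue genes that passed upward or downward, and grey those that did not. IFNKL1, at 1.71, IFNW1, at 0.98, and IFIH1, at 0.92, lie furthest to the right.

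Interferon genes other than IFNKL1 were few among the reads. The symbols IFNB and IFNB1 had no match. Whether interferon beta stands among the deposited genes under another symbol, IFNW1 included, was not checked. IFNW1, annotated as interferon omega, lies elsewhere on the same chromosome, at Z: 7372029-7372640. It stood at 9.73, 7.90 and 7.06 FPKM with ANKRD9 and at 3.52, 4.57 and 2.94 FPKM in the controls. The groups did not overlap, and IFNW1 rose 2.24-fold on 38 to 159 reads per library (limma, log2 difference 0.98 ± 0.15, adjusted p = 0.00237). Its 612 bases lie wholly within LOC407092 on the opposite strand, which stood at 20.8 ± 0.287 and 19.2 ± 0.458 FPKM, a log2 difference of 0.11 ± 0.04 that did not pass (limma, adjusted p = 0.0555). Its part in the reads of IFNW1 was not tested. IFNKL1 to IFNW1 was 1.02, 1.01 and 1.17 within the ANKRD9 libraries and 0.557, 0.363 and 0.783 within the control libraries, so the pair stood near parity with ANKRD9 and IFNW1 was ahead in each control library.

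IFNL3L, an interferon lambda-like gene on chromosome 7: 4571444-4577889, drew 37, 27 and 13 reads with ANKRD9 and 1, 0 and 0 without. All 3 ANKRD9 libraries had more reads than any control library, at 0.252, 0.301 and 0.122 FPKM. The ratio of read rates was 78.8, with an exact 95% interval from 13.7 to 3152 that covers counting error only, and the gene lay below the filter and was not tested. IFNG, the type II interferon gene, had 14, 11 and 8 reads with ANKRD9 and 1, 8 and 4 in the controls, so the counts met at 8. Per length and depth the groups did not overlap, at 0.312 to 0.510 FPKM against 0.0379 to 0.265 FPKM. IFNG was likewise not tested.

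Among the interferon alpha genes found, IFNA3, IFNAL1, IFNAL2, IFNAL4 and IFNAL5 were at 0 reads in all 6 libraries, as was IFNL3A. For IFNA3 the limit of 3 reads is 0.147 to 0.241 FPKM by library. IFNAL6 had 12 reads with ANKRD9 and 6 in the controls, and IFNAL3 had 5 and 5. These genes are close copies of each other, so how their reads were shared is uncertain.

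**Figure D4:**
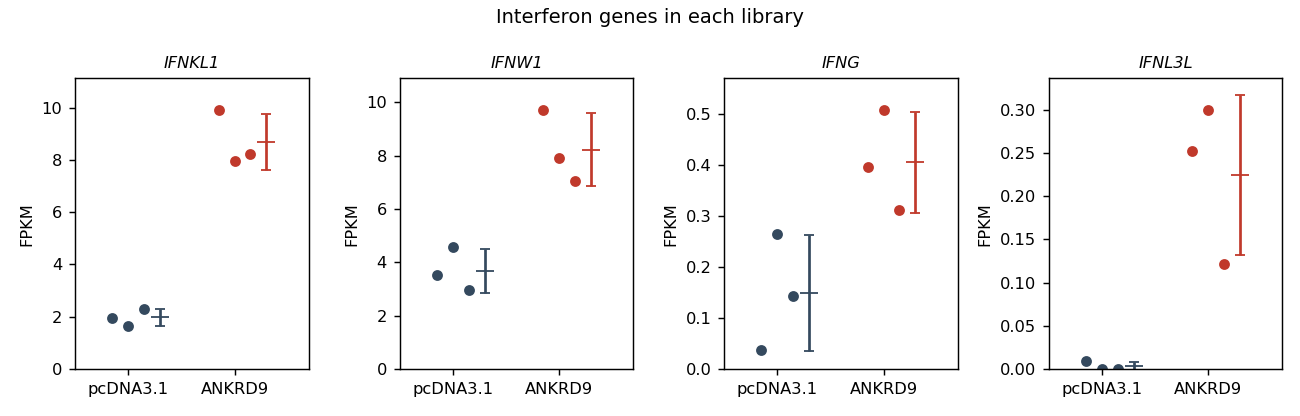
FPKM (y axis, from 0) of 4 interferon genes in each library, control libraries on the left and ANKRD9 libraries on the right. Points are libraries and bars the mean with SD (n = 3). The groups are apart in all 4 panels. IFNL3L is at or near 0 in the controls.

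Around IFNKL1 the table lists 10 genes within 100000 bases, and 1 of them, FOCAD, was tested. FOCAD, at 7.89 against 9.20 FPKM, did not pass. HACD4, which ends 4564 bases away, was below the filter at 0.444 against 0.714 FPKM, and the uncharacterised genes and small RNA genes on the other side had group means of at most 0.0320 FPKM. The mean of neither annotated neighbour was higher with ANKRD9.

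On the receiving side, 16 of 28 symbols of interferon ligands, receptors and JAK-STAT were tested. Of these, 7 rose (43.8%), 2 fell (12.5%) and 7 did not pass, with a median log2 difference of 0.15. Among all tested genes 16.3% rose and 19.8% fell. IFNAR1, a chain of the type I interferon receptor, rose 1.43-fold, to 33.5 ± 1.24 FPKM against 23.4 ± 0.610 FPKM (SD, n = 3 each; limma, adjusted p = 2.82e-04). STAT2 rose 1.26-fold to 71.4 ± 2.69 FPKM (limma, adjusted p = 0.00113), and it overlaps IL23A on the opposite strand. JAK1, a kinase at that receptor, fell 1.26-fold to 20.2 ± 1.71 FPKM, and IFNGR1, of the type II receptor, 1.18-fold to 14.0 ± 1.28 FPKM (limma, adjusted p = 0.00983 and 0.0338). The call of IFNGR1 was lost without ANKRD9 replicate 1 or 3 or pcDNA3.1 replicate 1 or 3, with adjusted p from 0.0585 to 0.0833, which left 1 gene lower. Picked after its values were seen, the second type I chain IFNAR2 at 35.6 ± 1.77 against 32.0 ± 1.39 FPKM did not pass (limma, adjusted p = 0.0599), though it passed without pcDNA3.1 replicate 1 (adjusted p = 0.0362). IFNGR2, the other chain of the type II receptor and also picked after its values were seen, went the other way from IFNGR1. IFNGR2 rose 1.26-fold, to 52.7 ± 0.932 against 41.7 ± 2.17 FPKM (limma, adjusted p = 0.00194).

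Interferon-stimulated genes are the output of that receptor and include DHX58, IFIH1 and EIF2AK2. Of 36 others tested, 22 rose (61.1%), 2 fell (5.56%) and 12 did not pass, with a median log2 difference of 0.24. Across all tested genes the shares were 16.3% and 19.8%. HELZ2, CCL19 and RSAD2 had the smallest adjusted p among the rises, at 2.49-fold, 2.15-fold and 1.71-fold (limma, adjusted p from 1.06e-04 to 2.32e-04). The fallers were the death ligand gene TNFSF10, 1.38-fold to 53.2 ± 1.74 FPKM, and TRIM25, a ubiquitin ligase that in mammals activates RIG-I, 1.32-fold to 46.9 ± 4.75 FPKM (limma, adjusted p = 3.68e-04 and 0.0184). TRIM25 overlaps DGKE on the opposite strand and lost its call without ANKRD9 replicate 1 (adjusted p = 0.0532), which left 1 gene lower. Of all listed symbols, 10 stand on more than 1 pathway list, IRF1, IRF7 and TRIM25 among them, so the lists are not separate evidence.

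Among genes that restrain RNA sensing, 27 of 35 symbols were tested. Of these, 12 rose (44.4%), 4 fell (14.8%) and 11 did not pass, beside 16.3% and 19.8% of all tested genes. The median log2 difference was 0.10. Without ANKRD9 replicate 2 the number higher was 8. The rises of smallest adjusted p were of inhibitors of NF-kB. TNFAIP3 (A20) rose 1.66-fold to 58.0 ± 2.99 FPKM, NFKBIA 1.55-fold to 248 ± 8.18 FPKM and NFKBIE 1.39-fold to 115 ± 1.82 FPKM (SD, n = 3 each; limma, adjusted p = 1.50e-04, 2.90e-04 and 6.35e-04). SIKE1, which binds and holds back TBK1 and IKBKE, fell 1.49-fold to 14.7 ± 0.964 FPKM, and OTUD5, a deubiquitinase of TRAF3, fell 1.34-fold to 24.5 ± 1.10 FPKM (limma, adjusted p = 6.06e-04 and 0.00191). TRIM59 fell 1.29-fold to 6.97 ± 0.0303 FPKM (limma, adjusted p = 0.00673). SIKE1 overlaps LOC112530332 and OTUD5 overlaps HUC on the opposite strand, and TRIM59 overlaps KPNA4 on the same strand.

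Of other genes for proteins that bind, edit or process double-stranded RNA, 24 were tested. There were 6 higher (25.0%), 2 lower (8.33%) and 16 not passing, with a median log2 difference of -0.03. Among all tested genes 16.3% were higher and 19.8% lower. ZC3HAV1, the zinc-finger antiviral protein, rose 1.36-fold to 58.8 ± 1.50 FPKM, the helicase gene DDX60 1.29-fold to 38.7 ± 1.31 FPKM, and OASL, of the oligoadenylate synthetase family, 1.30-fold to 1272 ± 18.0 FPKM against 979.9 ± 57.5 FPKM (SD, n = 3 each; limma, adjusted p = 7.26e-04, 7.47e-04 and 0.00228). The Staufen genes STAU1 and STAU2, whose proteins bind RNA duplexes in transport and decay, fell 1.28-fold and 1.23-fold (limma, adjusted p = 6.43e-04 and 0.00344). ADAR, the RNA-editing enzyme that marks the cell's own duplexes, rose 1.17-fold to 65.5 ± 0.785 FPKM (limma, adjusted p = 0.00483) and was picked after its values were seen.

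EIF2AK2 shares its substrate with 3 other kinases, none of which passed. EIF2AK1 stood at 16.5 ± 1.49 against 14.4 ± 0.650 FPKM, EIF2AK3 at 18.8 ± 1.16 against 18.9 ± 1.30 FPKM and EIF2AK4 at 6.28 ± 0.528 against 6.77 ± 0.284 FPKM (SD, n = 3 each; limma, adjusted p = 0.0714, 0.968 and 0.294). These too were picked after their values were seen. In their list of 18 tested genes, 3 rose (16.7%), 2 fell (11.1%) and 13 did not pass, with a median log2 difference of 0.00. The share that rose was near the 16.3% of all tested genes, of which 19.8% fell. No result about the list is read from these counts. ATF3, a stress-induced factor, rose 1.68-fold to 69.2 ± 3.93 FPKM, CHAC1 1.37-fold to 8.66 ± 0.280 FPKM and ATF4, translated when eIF2 is phosphorylated, 1.14-fold to 489 ± 17.1 FPKM against 430.1 ± 18.0 FPKM (limma, adjusted p = 1.41e-04, 0.00399 and 0.0229). EIF2S3 and EIF2B2, of eIF2 and its exchange factor, fell 1.20-fold and 1.11-fold (limma, adjusted p = 0.00489 and 0.0278). ATF4 lost its call without ANKRD9 replicate 1 or 2 or pcDNA3.1 replicate 3 (adjusted p up to 0.0859), and EIF2B2 without ANKRD9 replicate 1 or 2 or pcDNA3.1 replicate 1 or 2 (adjusted p up to 0.0932), which left 1 gene lower. ATF3 overlaps TMEM206 and CHAC1 overlaps LOC112532473 on the opposite strand.

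TLR3 aside, 18 Toll-like receptors and partners were tested. Of these, 4 rose (22.2%), 4 fell (22.2%) and 10 did not pass, with a median log2 difference of 0.07. These shares lie near the 16.3% and 19.8% of all tested genes, so no result about the list is read from them. TLR15, a receptor found in birds and reptiles, rose 1.47-fold to 7.12 ± 0.704 FPKM against 4.86 ± 0.428 FPKM, the adaptor gene TIRAP 1.31-fold to 23.5 ± 0.634 FPKM and TRAF3IP2 1.36-fold to 14.8 ± 0.212 FPKM (SD, n = 3 each; limma, adjusted p = 0.00474, 8.35e-04 and 0.00192). TOLLIP fell 1.15-fold, PELI2 1.35-fold and TLR2A 1.35-fold (limma, adjusted p = 0.00800, 0.0150 and 0.0347). TLR2A lost its call without any library other than ANKRD9 replicate 2 (adjusted p up to 0.0953), and the number lower was 2 without ANKRD9 replicate 3 or pcDNA3.1 replicate 2 or 3. TIRAP overlaps FAM118B on the opposite strand.

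**Figure D5:**
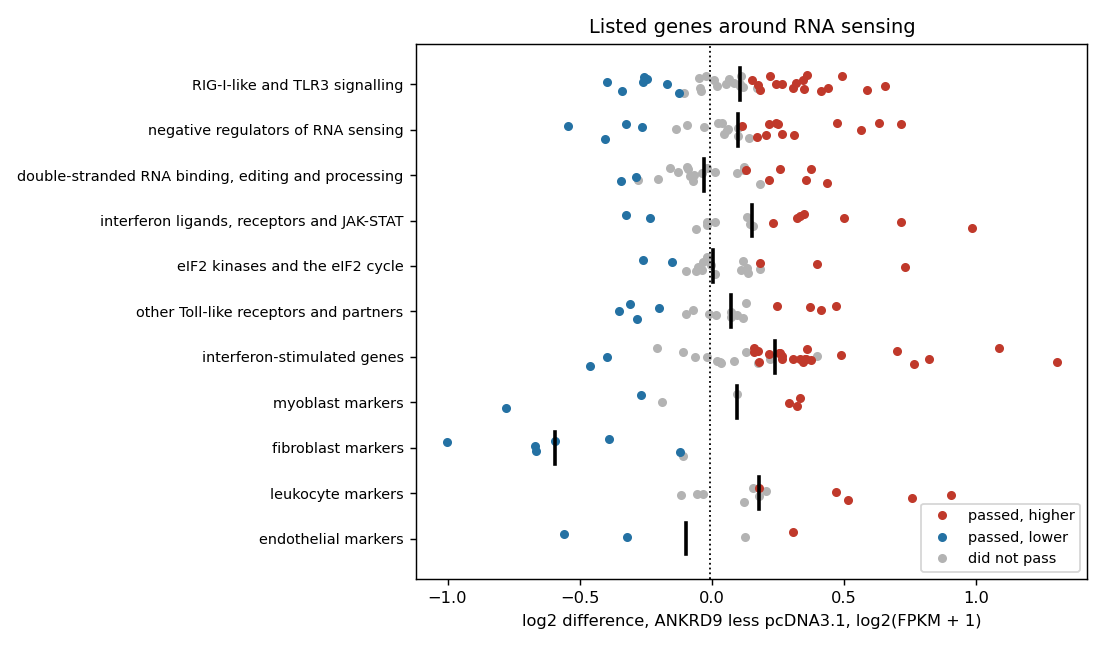
Log2 differences (x axis, ANKRD9 less control, on log2(FPKM + 1)) of the tested genes of each list, the 7 members left out, 1 point per gene with vertical scatter for legibility. Red and blue points passed upward or downward and grey did not. Black bars are list medians, and the dotted line is the median of all tested genes, -0.01. The interferon-stimulated list has the highest median, 0.24, and the fibroblast list the lowest, -0.59.

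Genes of other cell types moved with the groups too. Of 19 leukocyte markers 12 were tested, and 5 (41.7%) were higher and none lower, beside 16.3% and 19.8% of all tested genes. Their summed level was 246 to 262 FPKM with ANKRD9 and 200.1 to 227 FPKM in the controls, and no marker found was at 0 in all libraries. CTSS, the most abundant, stood at 160 ± 1.93 against 144 ± 12.8 FPKM and did not pass, whereas NCF1 rose 1.72-fold to 41.7 ± 2.00 FPKM, SPI1 1.50-fold to 8.88 ± 0.701 FPKM and LAPTM5 1.16-fold to 6.60 ± 0.388 FPKM (limma, adjusted p = 0.0865, 1.11e-04, 0.00219 and 0.0447). CTSS passed without pcDNA3.1 replicate 2 (adjusted p = 0.00721, limma). The call of LAPTM5 was lost without any library other than ANKRD9 replicate 3. Without ANKRD9 replicate 1 or 2 or pcDNA3.1 replicate 1 or 3, 3 markers were higher. In bulk RNA, more or fewer cells of a type and more or less RNA per cell cannot be told apart.

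Fibroblast markers went the other way, with 6 of 7 tested (85.7%) lower and none higher, where 19.8% of all tested genes were lower and 16.3% higher. The summed level of the fibroblast markers was 1373 to 1474 FPKM with ANKRD9 against 1839 to 1887 FPKM in the controls. Among myoblast markers MYF5, DES and MYF6 rose (42.9% of those tested) and MYOD1 and PAX7 fell (28.6%). The sums over the myoblast markers were 962 to 1068 FPKM with ANKRD9 against 940.5 to 992 FPKM in the controls. The number lower was 1 without ANKRD9 replicate 1 or 2. Of 4 endothelial markers tested, 1 was higher and 2 lower, with sums of 23.2 to 23.3 FPKM against 22.3 to 23.1 FPKM. The part of these cell types in the values of IFIH1, IFNKL1 and the other genes above was not tested.

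The profiles most like those of IFIH1 and IFNKL1 were sought among all tested genes with a symbol, as the smallest root mean square distance over the 6 libraries on the log2 scale, each gene taken relative to its control mean. For IFIH1 these were BG2, at a distance of 0.02, MSX2 at 0.04 and GEM at 0.05. MSX2, at 28.6 against 14.9 FPKM, and GEM, at 90.1 against 46.4 FPKM, had ratios of 1.92 and 1.94, beside the 1.91 of IFIH1. BG2, at 2.93 against 1.05 FPKM, had a ratio of 2.78, and its small distance comes from the pseudocount of 1, which lowers the log2 difference of so low a gene to 0.93. For IFNKL1 they were PGF at 0.22, the microRNA gene MIR181A1 at 0.25 and a CCL4 gene at 0.33. MIR181A1 had 6 to 43 reads per library, and this CCL4 gene is the one at 809 FPKM of 2 so named. The ratios were 2.90 for PGF, 3.32 for MIR181A1 and 2.42 for this CCL4 gene, all below the 4.41 of IFNKL1. The pseudocount of 1 lowers the log2 difference of IFNKL1 to 1.71. BG2 overlaps LOC107054694, and MIR181A1 overlaps LOC107053920, on the opposite strand.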

How the data were processed

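The authors deposited FPKM per gene for 6 libraries in 1 table, per the file headers, with each gene's symbol, position and length. Per the submitters' processing notes, CASAVA and genome build GRCg6a (galGal6) were used, while no aligner, counter or strand setting is named. The NEBNext Ultra RNA kit of the labels' protocols does not, as named, mark strand. FPKM times gene length was a whole multiple of 1 step per library for 100% of values (tolerance 0.01), which gave the reads. All 6 columns were matched by name, and 0 were left without a sample.

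The test was limma 3.58.1 (R 4.3.3), with a single group term, a mean trend and a Benjamini-Hochberg threshold of 0.05, run on log2(FPKM + 1) for the 11685 of 24433 genes whose mean reached 1 FPKM. The procedure was tested on counts simulated with the same spread setting for every gene, which is simpler than these data. No result here rests on that simulation. Folds are ratios of group means. The members, the 11 lists and the rule for named genes were chosen with earlier results of these data known. Genes named outside the rule are marked in the text as picked after their values were seen, and MYF6, MYF5 and the other myoblast markers, the genes that overlap or neighbour a member, and listed genes cited as shared come from their lists or positions. The rule took interferon and IRF symbols (1 of them and 1 further gene are not reported here), the 3 smallest adjusted p per list and direction, 4 leukocyte markers of highest level, and 3 genes of most similar profile to IFIH1 and to IFNKL1. Lists were matched by exact symbol, and symbols without a match were not analysed here. Chromosome names came from identifiers shared with NCBI's chicken table (GRCg7b; 19717 or 80.7% of identifiers), whose coordinates were not used. The libraries of a group differed beyond counting error (chi-square per degree of freedom from 2.60 to 7.81). Alternatives were another pseudocount, filter or scaling, a replicate term, and leaving out each library.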

Additional observations from a re-analysis of the deposited data

How the results depend on the processing

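No member changed direction under any of the 12 alternatives run, where TBK1 has no value at a minimum mean of 5 FPKM, and the log2 difference moved by more than the spread between libraries only for IFNKL1, at 2.09 with a pseudocount of 0.1. Leaving out 1 library gave 0.90 to 0.97 for IFIH1, 0.29 to 0.33 for DHX58, 0.03 to 0.10 for TLR3, -0.06 to -0.01 for MAVS, 0.08 to 0.15 for TBK1, 1.62 to 1.78 for IFNKL1 and 0.21 to 0.24 for EIF2AK2. Over all genes it gave 1255 to 1764 higher and 1577 to 2146 lower. In the lists, leaving out 1 library gave 3 to 5 lower for RIG-I-like and TLR3 signalling, 1 to 2 for interferon ligands, receptors and JAK-STAT, 1 to 2 for the eIF2 list, 2 to 3 for the other Toll-like receptors, 1 to 2 for interferon-stimulated genes and 1 to 3 for myoblast markers, and 3 to 6 leukocyte markers higher. Without a filter on low values the numbers lower were 4, 1, 2 and 1 for signalling, JAK-STAT, other Toll-like receptors and interferon-stimulated genes, with 1653 and 1866 of 20743 genes called. At a minimum of 5 FPKM, 1 other Toll-like receptor gene was lower and 3 leukocyte markers higher, out of fewer genes tested. Quantile normalization gave 2108 higher and 2233 lower. EIF2AK3, which never passed, ranged from -0.0592 to 0.0444 over the libraries left out, positive in 3 of 6. No pairing of the samples by the numbers of the repeats was seen. Same-numbered deviations correlated at -0.196, 0.0336 and -0.0797, and none of the 6 libraries correlated best with its own number. Deviations from a mean over 3 libraries are tied to each other, so this check would not show a weak pairing. With the replicate block, 1420 genes were higher and 1693 lower, and the numbers lower were 3 for signalling and 1 each for JAK-STAT, the eIF2 list and interferon-stimulated genes, while 3 leukocyte markers were higher. The cause of these changes was not tested. No alternative moved the median of all genes by over 0.1 on the log2 scale. The planned count test on whole reads was not run, because the deposited unit was taken as FPKM, and the planned motif search was not run, because no promoter sequence was used here. Depth limits the interferon genes, where the lowest libraries of IFNKL1, IFNW1, IFNL3L and IFNG had 64, 38, 0 and 1 reads, and counting intervals do not cover the spread between libraries.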
